A study of Homo sapiens with 12 samples.

Results

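The respiratory chain was followed through 92 genes that encode its subunits, of 78932 rows in the deposited tables. The genes were taken by symbol (the NDUF subunit families, SDHA to SDHD, the UQCR genes with CYC1, CYCS, the ubiquitously expressed COX subunits, the ATP5 genes and the protein-coding MT- genes) where their counts summed to 120 or more across all 12 libraries. Of the 92, 79 are nuclear genes and 13 lie in the mitochondrial genome. All 92 passed the filter on low counts and were tested. NDUFA4 carries a complex I name and is counted here with complex IV, in which it is now placed.

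The libraries came from THP-1 cells, an established human line of monocytic leukaemia origin, in 4 groups of 3. The CEL group received LPS, ATP, CsA, Eltrombopag and Luspatercept. The CE group received the same without Luspatercept. The LPS group received LPS and ATP, the model of pyroptosis in the study, and the NC group was the normal control with none of these agents. LPS, a bacterial cell wall component, activates TLR4, and ATP outside the cell opens the P2X7 channel. CsA is cyclosporin A, an inhibitor of calcineurin, Eltrombopag is an agonist of the thrombopoietin receptor that also binds iron, and Luspatercept is a ligand trap built from the activin receptor IIB. Doses and times were not stated in what was read here. Whether the 3 libraries of a group came from separate cultures is not said either, and the p-values then speak to library-to-library spread alone, which may be technical. The CE columns were matched to their samples as the only group left over, and every CE value rests on that match.

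The respiratory chain passes electrons from NADH, at complex I, and from succinate, at complex II, through coenzyme Q to complex III, and from there through cytochrome c to oxygen at complex IV. Complexes I, III and IV pump protons across the inner mitochondrial membrane, and complex V, the ATP synthase, lets them return to make ATP. Most subunits are made from nuclear genes, the membrane core of complexes I, III, IV and V also needs proteins encoded by mitochondrial DNA, and complex II is wholly nuclear. In monocytes and macrophages the chain is known as a source of ATP and of reactive oxygen species, and activation by LPS is known to change its use.

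Each library held 17737240 to 23183474 counts, 4.55 to 7.17% of them from the 13 mitochondrial members and 0.910 to 1.36% from the nuclear ones. The 10 monocyte markers checked summed to 463 to 507 TPM in CEL, 499 to 619 in CE, 772 to 1145 in LPS and 779 to 1078 in NC, but did not move together: LYZ (lysozyme) had 22.1 to 28.4 TPM in CEL and 487 to 681 in NC, and CD68 (a lysosomal protein) 230.2 to 256 in CEL and 60.6 to 94.6 in NC. Markers of T and NK cells summed to at most 18.3 TPM in any library, those of B cells to 2.94 and those of erythroid cells and megakaryocytes to 4.62. Of 8 fibroblast, epithelial and endothelial markers only DCN, which encodes decorin, stood out, at 24.5 to 40.7 TPM in LPS and at most 2.48 in any library of the other groups, while the other 7 were at most 0.38 TPM in LPS; the part of these markers in the results was not tested. Nuclear ribosomal RNA took 0.128% of the counts in LPS 1 and 0.173% in NC 3, against at most 0.000563% in the other 10 libraries. Mitochondrial ribosomal RNA was also highest in LPS 1 and NC 3. In deposited TPM the nuclear members summed to 1.84% of the library in NC 3, against 2.70 and 2.62% in NC 1 and NC 2. LPS 1 had 1.76%, against 2.44 and 2.41% in LPS 2 and LPS 3. Shares of counts lay closer, at 1.225% in NC 3 against 1.36 and 1.32%, and 1.07% in LPS 1 against 1.15 and 1.13%. Changes between libraries are given in CPM, read counts relative to library size after scaling with TMM factors, and TPM only for levels between genes. Values with ± are means with SD over 3 libraries or, for log2 changes, an approximate standard error from the fit. Where a call is given as lost without a library, other ways of processing may have ended it as well. In RNA from whole cultures, fewer cells of a kind and less RNA per cell cannot be told apart.

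Most of the 13 mitochondrial genes lie close to the next on a small circular genome, and both of its strands are transcribed into long precursors. MT-ND6 is read from the opposite strand to the other 12. It occupies chrM:14149-14673 and touches MT-ND5, at chrM:12337-14148 on the other strand, with 0 bases between them (GENCODE 29, GRCh38). The sources used here do not give the strand setting of the counting, so reads of a gene and of RNA from the opposite strand cannot be told apart. RNA was captured with oligo-dT beads, and whether capture differed between the 13 transcripts, MT-ND6 among them, or between groups was not tested. The genes of 3 pairs overlap in the same direction, MT-ATP6 and MT-CO3 by 1 base only, at position 9207. The longer overlaps are shown because reads there belong to both members of a pair, with capitals for the start codon of the downstream gene.
MT-ATP8 and MT-ATP6, chrM:8527-8572: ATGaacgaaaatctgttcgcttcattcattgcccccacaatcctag
MT-ND4L and MT-ND4, chrM:10760-10766: ATGctaa
Nuclear genomes also hold near copies of mitochondrial DNA and processed copies of several nuclear members, and how the counting shared such reads is not given.

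Per unit of length, 11 of the 13 mitochondrial transcripts had a higher mean TPM than every nuclear member. The others were MT-ND6, at 745 TPM with 3 nuclear members above it, and MT-ND5, with 8 above it. The lowest, MT-ND5, averaged 597 TPM over the 12 libraries, and the highest, MT-ATP8, 24889 TPM, a value that rests on an effective length of 56.8 bases. Among nuclear members, UQCRH, the hinge protein of complex III, had the highest mean at 1396 TPM, and NDUFS7, a core iron-sulfur subunit of complex I, the lowest at 5.81 TPM; both were named after their values were seen. The summed TPM of the mitochondrial members was 4.73, 4.56 and 4.55 times that of the nuclear ones in CEL, 5.56, 5.64 and 5.98 times in CE, 5.12, 5.16 and 4.76 times in LPS and 5.54, 5.85 and 4.96 times in NC. In this measure the 3 CEL values lay below all 9 others, by little for LPS 3, and those of LPS and NC overlapped. Counts did not keep that order. In CEL 1 the mitochondrial members took 4.59% of counts and the nuclear ones 0.967%. In LPS 3 these shares were 5.12% and 1.13%, a lower ratio of mitochondrial to nuclear counts than in CEL 1.

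**Figure D1:**
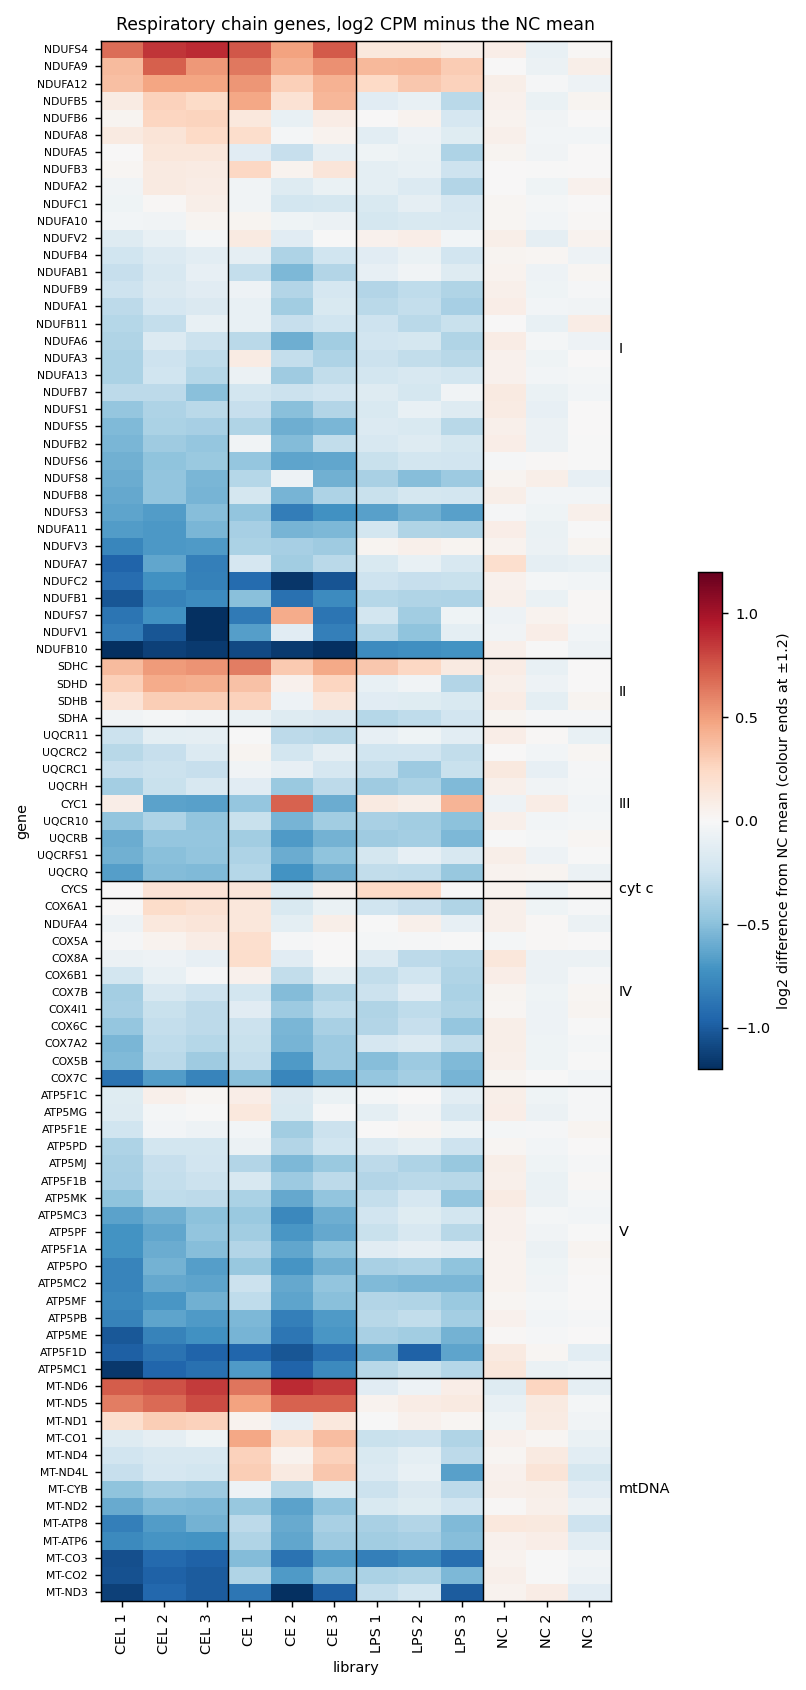
Level of the respiratory chain genes (rows, grouped by complex, mitochondrial genes last, 1 nuclear gene not shown) in each library (columns), as log2 CPM minus the mean of the 3 NC libraries; red is higher and blue lower than NC, and colours end at ±1.2. Most rows are blue in CEL, CE and LPS, while NDUFS4, SDHC, MT-ND5 and MT-ND6 are red in CEL and CE; CE 2 stands apart in CYC1, NDUFS7 and NDUFV1.

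Addition of LPS and ATP was followed by lower transcript levels across most of the chain. Of the 92 members, 54 fell and 4 rose in LPS relative to NC, where 23.5% of all 14065 genes tested fell and 22.4% rose, 45.9% in either direction (edgeR, adjusted p under 0.05). The median change of the members was -0.24 on the log2 scale, beside -0.01 over all genes tested; with an offset for transcript length it was -0.04, beside -0.02, and with limma on log2(TPM + 1) -0.10, beside 0.09. Of nuclear members, 18 of 37 fell in complex I, 1 of 4 in complex II, 6 of 9 in complex III, 9 of 11 in complex IV and 12 of 17 in complex V. Of the 13 mitochondrial members, 8 fell and none rose. Those that rose included NDUFA9 and SDHC.

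In complex I, NDUFB10, an accessory subunit of the distal membrane arm, had 55.2, 55.8 and 56.5 CPM in LPS against 97.0, 92.8 and 89.4 CPM in NC. The groups were far apart relative to the spread within each, and the change was -0.74 ± 0.06 on the log2 scale (edgeR, adjusted p = 9.52e-07). NDUFS3, a core subunit on the quinone side, had 52.2, 54.8 and 52.2 CPM in LPS against 81.1, 78.8 and 85.6 CPM in NC, a fall of similar size (-0.62 ± 0.08, edgeR adjusted p = 0.000103). NDUFA9, an accessory subunit beside the quinone channel, moved the other way, at 29.6 ± 1.04 CPM in LPS against 23.1 ± 1.09 CPM in NC (0.36 ± 0.09, edgeR adjusted p = 0.00561). Subunits of 1 enzyme thus had transcripts that changed in opposite directions. By region of complex I, 2 of 8 genes of the NADH-oxidising module, 2 of 4 of the quinone-side core, 5 of 11 NDUFB genes and 9 of 14 other accessory genes fell.

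In complex II, which oxidises succinate and also belongs to the tricarboxylic acid cycle, SDHA, the flavoprotein, had 160.1, 164 and 173 CPM in LPS against 208, 200.3 and 200.2 CPM in NC (-0.29 ± 0.04, edgeR adjusted p = 9.96e-05). SDHC, a membrane anchor, was higher in LPS at 164 ± 12.8 CPM against 140.0 ± 8.47 CPM in NC (0.23 ± 0.08, edgeR adjusted p = 0.0463, and 0.0551 with a replicate block). That call did not survive the loss of 1 library, with an adjusted p above 0.05 without CE 3, CEL 2, CEL 3, LPS 1, LPS 2, NC 2 or NC 3 (0.0552 to 0.196). The iron-sulfur subunit SDHB had 76.7, 76.4 and 74.1 CPM in LPS and 89.7, 77.8 and 86.1 CPM in NC, and the other anchor, SDHD, 139, 144 and 116 CPM in LPS and 154, 141 and 148 CPM in NC. Neither passed the test.

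In complex III, UQCRB, a small subunit near the quinone site, had the largest fall, with 378, 385 and 351 CPM in LPS against 508, 503 and 519 CPM in NC (-0.46 ± 0.07, edgeR adjusted p = 0.000151). CYC1, the cytochrome c1 subunit, did not pass and had 29.7, 28.96 and 36.6 CPM in LPS and 26.5, 29.3 and 27.1 CPM in NC, with overlapping groups. The mobile carrier cytochrome c (CYCS) also overlapped, with 768, 770.3 and 648 CPM in LPS and 671, 624 and 659 CPM in NC. In complex IV, COX5B, a zinc-binding accessory subunit, fell most among the nuclear members of that complex, with 74.3, 78.0 and 73.1 CPM in LPS against 110.2, 102 and 105 CPM in NC (-0.49 ± 0.09, edgeR adjusted p = 0.000834). In complex V, ATP5F1D, the delta subunit of the central stalk, was measured at low level, with 2.11, 1.66 and 2.09 CPM in LPS against 3.49, 3.29 and 2.97 CPM in NC (-0.73 ± 0.16, edgeR adjusted p = 0.00272). ATP5F1E, the epsilon subunit of that stalk, was the abundant member with the smallest change, at 213 ± 5.89 CPM in LPS and 214 ± 4.75 CPM in NC.

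Among mitochondrial transcripts, MT-CO3, a core subunit of complex IV, had 5361, 5564 and 5072 CPM in LPS against 9762, 9484 and 9232 CPM in NC. This was the largest fall among the 92 members (-0.83 ± 0.10, edgeR adjusted p = 2.66e-05). MT-CO2, which accepts electrons from cytochrome c, averaged 5641 ± 371 CPM in LPS and 7565 ± 310.2 CPM in NC (-0.42 ± 0.09, edgeR adjusted p = 0.00274). MT-CO1, the catalytic subunit with the oxygen-binding site, averaged 11976 ± 480.4 CPM in LPS and 14686 ± 684 CPM in NC (-0.29 ± 0.10, edgeR adjusted p = 0.0271). All 3 core genes of complex IV were lower, but not by the same amount. MT-ATP6, the proton channel subunit of complex V, and MT-ATP8, which overlaps it, had log2 changes of -0.44 and -0.43 (edgeR adjusted p = 0.00102 and 0.00805). MT-ND3, a short membrane subunit of complex I, had 1198, 1246 and 728 CPM in LPS against 1501, 1549 and 1327 CPM in NC, and LPS 3 lay well below the other 2 LPS libraries. MT-ND1, MT-ND4, MT-ND4L, MT-ND5 and MT-ND6 did not pass, and MT-ND2 and MT-CYB passed narrowly (edgeR adjusted p = 0.0418 and 0.0366, against 0.0788 and 0.0615 with a replicate block).

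Each of the narrower mitochondrial calls was lost when any 1 of several libraries was left out. The adjusted p of MT-CO1 was above 0.05 without CE 3, LPS 1, LPS 3, NC 1, NC 2 or NC 3 (0.0677 to 0.0871), that of MT-CYB without CE 3, LPS 1, LPS 3, NC 1 or NC 2 (0.0771 to 0.12), that of MT-ND3 without CE 3, CEL 1, CEL 2, CEL 3, LPS 3, NC 1, NC 2 or NC 3 (0.055 to 0.122), and that of MT-ND2 without CE 3, CEL 2, LPS 1, LPS 2, LPS 3, NC 1, NC 2 or NC 3 (0.0541 to 0.136). Without LPS 1 and NC 3 together, the libraries with nuclear ribosomal RNA, 29 members fell and 1 rose, and NDUFA9 was no longer called. Without NC 1, 35 fell and 4 rose, without LPS 3, 36 fell and 5 rose, and without NC 3, 40 fell and 2 rose. A fit with an offset for transcript length left 13 lower and 5 higher, and limma on log2(TPM + 1) left 2 lower and 1 higher.

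The shift moved with transcript length. The 36 nuclear members with an effective length under 500 bases had a median log2 change of -0.28 in LPS against NC, and all 829 genes of that length had -0.30. For 26 members of 500 to 1000 bases the median was -0.21, beside -0.15 over 2351 genes, and for 14 members of 1000 to 2000 bases -0.14, beside -0.03 over 4322 genes. Over the 79 nuclear members the rank correlation of change with length was 0.397, and over 13570 genes 0.181; points share libraries and are a description. Short members thus changed about as much as short genes in general, and the part of length in the fall was not tested beyond the offset.

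**Figure D2:**
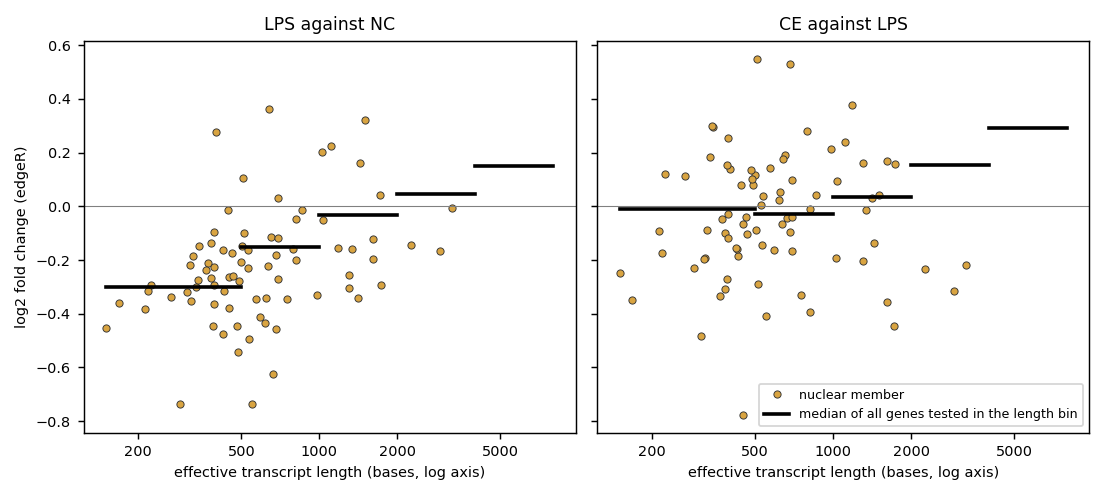
Log2 change of each nuclear member (points) against its effective transcript length in bases (log axis), for LPS against NC and CE against LPS; black bars give the median of all genes tested in each length bin. In LPS against NC the bars climb from -0.30 under 500 bases to 0.15 above 4000, and most members under 500 bases lie near their bar; in CE against LPS the bar under 500 bases is at -0.01.

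With CsA and Eltrombopag on top of LPS and ATP, members were called in both directions, at shares no higher than those of all genes. Relative to LPS, 17 members (18.5%) rose and 18 (19.6%) fell in CE, where 28.8% of all genes tested rose and 20.7% fell, 49.6% in either direction (edgeR, adjusted p under 0.05). The median of the members was -0.03 on the log2 scale, beside 0.08 over all genes tested. All 4 complex II genes rose, while no nuclear gene of complex V rose and 7 of 17 fell. In complex I, 5 nuclear genes rose and 8 of 37 fell. Of the 13 mitochondrial members 5 rose and 2 fell.

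In complex II, SDHD had 188, 153 and 177 CPM in CE against 139, 144 and 116 CPM in LPS, with no overlap (0.38 ± 0.09, edgeR adjusted p = 0.00487). SDHB had 102, 81.0 and 93.1 CPM in CE against 76.7, 76.4 and 74.1 CPM in LPS (0.28 ± 0.08, edgeR adjusted p = 0.0136, lost without CE 1, CE 3 or NC 3 (0.0514 to 0.103)). SDHC had 215, 174 and 192 CPM in CE against 176, 166 and 150.2 CPM in LPS (0.24 ± 0.08, edgeR adjusted p = 0.0327, lost without CE 1, CE 3, LPS 2, LPS 3 or NC 3 (0.0664 to 0.143)). CE 2 was the lowest CE library for these 3 genes, and for SDHC it overlapped LPS. SDHA had 192, 182 and 179.6 CPM in CE against 160.1, 164 and 173 CPM in LPS (0.16 ± 0.04, edgeR adjusted p = 0.00617, lost without CE 3 (0.082) or NC 3 (0.0615)), and its sign turned to -0.02 with upper quartile scaling and to -0.0001 with library size alone. The 3 complex II genes with a sequence in the RefSeq promoter table (GRCh38.p14) are shown with ATP5MC1, a c-ring gene of complex V that fell, because members of the same chain moved apart. Each sequence runs from 250 bases before to 50 after the annotated start, on the gene's strand, and capitals mark the NRF1 consensus, ETS (CCGGAAG) and YY1 (AAGATGG) letters on either strand.
SDHA, chr5:218070-218369, plus strand: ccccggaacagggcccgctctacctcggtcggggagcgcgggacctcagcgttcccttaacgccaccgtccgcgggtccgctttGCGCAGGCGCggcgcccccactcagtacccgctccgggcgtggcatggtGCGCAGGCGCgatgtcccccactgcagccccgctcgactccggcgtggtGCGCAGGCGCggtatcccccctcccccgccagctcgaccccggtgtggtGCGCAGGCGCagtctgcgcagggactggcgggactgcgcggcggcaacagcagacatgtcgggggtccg
SDHB, chr1:17053983-17054282, minus strand: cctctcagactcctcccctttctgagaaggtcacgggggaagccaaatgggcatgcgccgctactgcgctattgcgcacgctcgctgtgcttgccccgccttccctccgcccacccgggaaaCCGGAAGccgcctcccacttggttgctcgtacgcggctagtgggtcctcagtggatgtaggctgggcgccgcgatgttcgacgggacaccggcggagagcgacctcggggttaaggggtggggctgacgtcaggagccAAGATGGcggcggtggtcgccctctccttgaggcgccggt
SDHD, chr11:112086623-112086922, plus strand: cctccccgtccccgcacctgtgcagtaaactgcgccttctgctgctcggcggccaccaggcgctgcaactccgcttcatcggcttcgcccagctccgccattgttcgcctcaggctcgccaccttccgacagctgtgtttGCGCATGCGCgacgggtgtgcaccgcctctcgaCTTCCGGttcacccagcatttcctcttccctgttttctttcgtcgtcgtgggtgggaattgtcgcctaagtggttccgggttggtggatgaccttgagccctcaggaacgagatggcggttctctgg
ATP5MC1, chr17:48892537-48892836, plus strand: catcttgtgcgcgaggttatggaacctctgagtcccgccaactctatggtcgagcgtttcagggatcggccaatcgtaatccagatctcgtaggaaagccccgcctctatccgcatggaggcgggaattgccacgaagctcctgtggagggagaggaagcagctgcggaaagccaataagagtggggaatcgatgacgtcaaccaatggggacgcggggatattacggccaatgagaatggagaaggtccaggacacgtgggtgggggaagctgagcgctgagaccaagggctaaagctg
The SDHA window held the NRF1 letters 4 times, SDHB held ETS and YY1 letters, SDHD held NRF1 and ETS letters, and none of the 3 was found for ATP5MC1. Of 65 nuclear members in the table, 40 (61.5%) held at least 1 of the 3, against 20.5% of all 27305 promoters of the same length: 15 of 32 in complex I, 3 of 3 in complex II, 7 of 7 in complex III, 6 of 9 in complex IV and 9 of 13 in complex V. These factors are known regulators of respiratory chain genes, and a match of letters is a description, not a binding site. The 27305 promoters were not limited to genes tested here. The share among tested genes was not counted, so the difference is not shown to be particular to the chain.

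In complex I, NDUFS4, an accessory subunit needed to complete the NADH-oxidising module, had 100.01, 83.5 and 99.5 CPM in CE against 65.2, 65.1 and 62.9 CPM in LPS (0.55 ± 0.08, edgeR adjusted p = 0.000176). NDUFB5, an accessory subunit of the membrane arm, had 166, 135 and 157 CPM in CE against 109, 112 and 95.5 CPM in LPS (0.53 ± 0.08, edgeR adjusted p = 0.000283). NDUFC2, another membrane accessory subunit, moved down with 52.5, 44.4 and 48.8 CPM in CE against 83.8, 82.7 and 82.8 CPM in LPS (-0.78 ± 0.07, edgeR adjusted p = 2.73e-06). NDUFV3, a small accessory subunit at the NADH end, had 36.3, 35.8 and 35.1 CPM in CE against 48.2, 49.3 and 48.4 CPM in LPS (-0.44 ± 0.05, edgeR adjusted p = 2.68e-05). These 4 changes were called under each of the 23 alternatives and showed no overlap of libraries. NDUFS4 and NDUFV3 belong to the same module and changed in opposite directions. NDUFC1, partner of NDUFC2 by name, was the abundant member with the smallest change, at 63.9 ± 4.51 CPM in CE and 63.8 ± 2.27 CPM in LPS.

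Complexes III and IV changed little, with 1 of 9 and 2 of 11 nuclear genes higher and 1 of 9 and 0 of 11 lower. UQCRFS1, the Rieske iron-sulfur protein of complex III, had 67.6, 58.1 and 62.7 CPM in CE against 75.6, 82.0 and 76.8 CPM in LPS (-0.32 ± 0.06, edgeR adjusted p = 0.00167). UQCRC1, a core protein of complex III, rose by 0.21 ± 0.07 (edgeR adjusted p = 0.0197, lost without CE 1, CE 3, LPS 2 or NC 3 (0.0545 to 0.0824)) and COX8A, a small accessory subunit of complex IV, by 0.30 ± 0.09 (edgeR adjusted p = 0.0195, lost without CE 1, CE 3, LPS 2, LPS 3 or NC 3 (0.061 to 0.0909)). CYC1 had 20.0, 45.1 and 18.3 CPM in CE and 29.7, 28.96 and 36.6 CPM in LPS, with CE 2 above every other library, and did not pass; CYCS had 662 ± 69.6 CPM in CE and 729 ± 70.0 CPM in LPS and did not pass either. In complex V, ATP5MC1 had 34.6, 28.5 and 32.8 CPM in CE against 44.0, 46.2 and 43.8 CPM in LPS (-0.48 ± 0.09, edgeR adjusted p = 0.00104). All 3 CE libraries lay below the LPS libraries, which were themselves below NC. ATP5F1B, the catalytic beta subunit of complex V (named after its values were seen), averaged 585 ± 50.01 CPM in CE and 573 ± 5.22 CPM in LPS and did not pass.

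Among mitochondrial members, MT-ND6 had 254, 303 and 289 CPM in CE against 148, 155 and 171 CPM in LPS, the largest rise among members (0.83 ± 0.11, edgeR adjusted p = 4.93e-05). Its neighbour MT-ND5, a pumping subunit of complex I, had 843, 989 and 984 CPM in CE against 621, 643 and 650.5 CPM in LPS (0.56 ± 0.07, edgeR adjusted p = 6.87e-05). Both calls held under each of the 23 alternatives. MT-CO1 had 20253, 16809 and 18991 CPM in CE against 12233, 12272 and 11421 CPM in LPS (0.64 ± 0.10, edgeR adjusted p = 0.000188). MT-ND4L rose by 0.53 ± 0.14 (edgeR adjusted p = 0.00765), and MT-ND4, which it overlaps, by 0.41 ± 0.10 (edgeR adjusted p = 0.00575, lost without CE 3 (0.0839)). The MT-ND4 call was lost under 7 of the 23 alternatives in all. MT-ND2 fell with a log2 change of -0.33 (edgeR adjusted p = 0.00146) and MT-ND3 with one of -0.56 (edgeR adjusted p = 0.0185, lost without LPS 1 (0.0764) or LPS 2 (0.0814)). MT-ND1, MT-CYB, MT-CO2, MT-CO3, MT-ATP6 and MT-ATP8 did not pass, and each of these overlapped LPS.

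The CE libraries differed among themselves. CE 2 stood apart in CYC1, at 45.1 CPM against 20.0 in CE 1 and 18.3 in CE 3, in NDUFS7 at 5.05 CPM against 2.07 and 2.02, and in NDUFV1, the NADH-binding core subunit, at 55.2 CPM against 38.4 and 34.4. Some monocyte markers outside the chain also set CE 2 apart from CE 1 and CE 3. SPI1 had 31.6 TPM against 3.17 and 5.12, ITGAM 24.9 against 4.15 and 7.25, and CSF1R 52.6 against 13.7 and 16.2. LYZ, CD36, FCGR1A and CD14 did not set it apart. Without CE 2, 27 members rose and 19 fell, without CE 3, 8 rose and 15 fell, and without CE 1, 11 rose and 29 fell; without NC 3, 10 rose and 16 fell. Library size alone gave 7 higher and 40 lower, so the balance of rises and falls depends on the scaling.

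**Figure D3:**
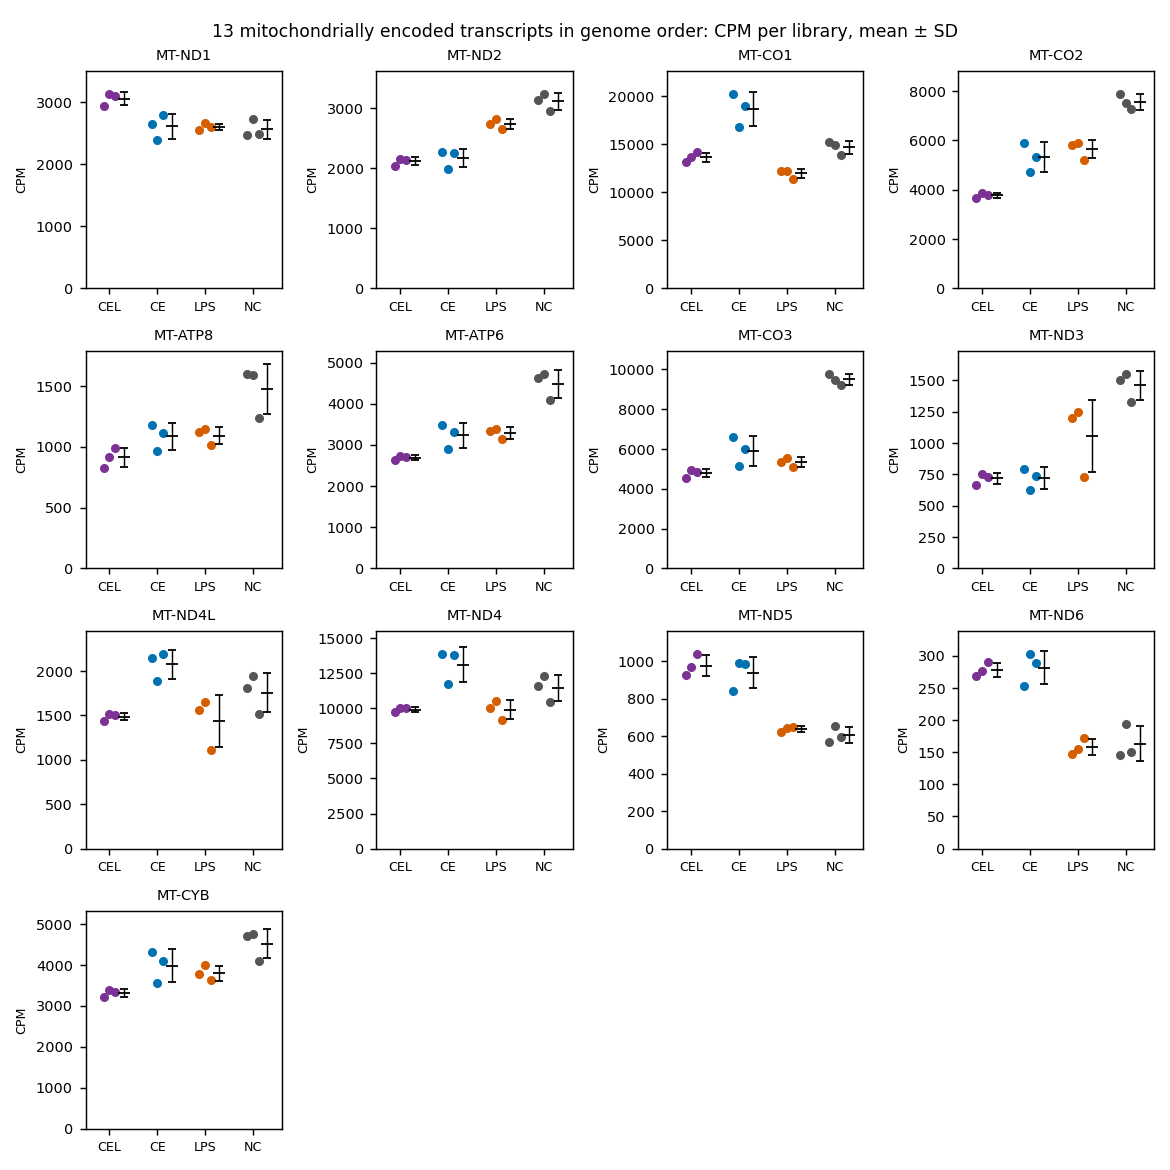
CPM of each of the 13 mitochondrially encoded transcripts in the 12 libraries, in genome order, with mean ± SD beside each group; axes start at 0 and differ between panels. MT-ND5 and MT-ND6 are higher in CEL and CE than in LPS and NC with no overlap, MT-CO3 is highest in NC, and MT-CO1 is highest in CE.

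The same comparison with Luspatercept added gave 17 members (18.5%) higher and 27 (29.3%) lower in CEL than in LPS, where 28.7% of all genes tested rose and 27.2% fell, 55.9% in either direction (edgeR, adjusted p under 0.05). The median of the members was -0.04 on the log2 scale, beside -0.03 over all genes tested. Complex II again had 4 of 4 genes higher, and complex V 8 of 17 nuclear genes lower and none higher. In complex I, 9 nuclear genes rose and 13 fell. Both comparisons use the same LPS libraries: 12 members were higher in both, which is 12 of 17 in each, 16 were lower in both, of 18 in CE and 27 in CEL, and none moved in opposite directions. The overlap over all genes tested was not counted, so these numbers do not show anything particular to the members.

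SDHD had 180.1, 202 and 199 CPM in CEL against 139, 144 and 116 CPM in LPS (0.54 ± 0.09, edgeR adjusted p = 0.000349), and SDHB had 94.8, 104 and 103 CPM in CEL against 76.7, 76.4 and 74.1 CPM in LPS (0.41 ± 0.08, edgeR adjusted p = 0.00118). Both calls held under each of the 23 alternatives. SDHA had 196, 199.97 and 197 CPM in CEL against 160.1, 164 and 173 CPM in LPS (0.26 ± 0.04, edgeR adjusted p = 0.000175). That call was lost under 5 of the 23 alternatives, among them upper quartile scaling, library size alone and no filter on low counts. SDHC had 181, 199.6 and 204 CPM in CEL against 176, 166 and 150.2 CPM in LPS (0.25 ± 0.08, edgeR adjusted p = 0.024, lost without CEL 2, CEL 3, LPS 2 or LPS 3 (0.0509 to 0.0963)). For each of the 4 genes every CEL library lay above every LPS library.

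NDUFS4 was again the largest nuclear rise, with 94.8, 108 and 111 CPM in CEL against 65.2, 65.1 and 62.9 CPM in LPS (0.70 ± 0.08, edgeR adjusted p = 2.05e-05), and NDUFB5 rose by 0.39 ± 0.08 (edgeR adjusted p = 0.00225). NDUFV3 had 27.5, 29.2 and 29.5 CPM in CEL against 48.2, 49.3 and 48.4 CPM in LPS, the smallest p among members (-0.76 ± 0.05, edgeR adjusted p = 2.75e-07). NDUFV1 had 34.2, 29.7 and 24.9 CPM in CEL against 47.9, 43.4 and 55.8 CPM in LPS (-0.73 ± 0.17, edgeR adjusted p = 0.00337). The NADH end of complex I therefore held both the largest nuclear rise and the 2 largest falls. In complex III, UQCRFS1 fell with a log2 change of -0.35 (edgeR adjusted p = 0.000657), with no other complex III member called. In complex IV, COX6A1, an accessory subunit, had 130.5, 152 and 148 CPM in CEL against 111, 108 and 101 CPM in LPS (0.43 ± 0.08, edgeR adjusted p = 0.000898). COX7C, another accessory subunit, averaged 188 ± 13.8 CPM in CEL and 232 ± 12.1 CPM in LPS (-0.31 ± 0.07, edgeR adjusted p = 0.00341). In complex V, ATP5MC1 had 24.97, 28.7 and 29.8 CPM in CEL against 44.0, 46.2 and 43.8 CPM in LPS (-0.68 ± 0.09, edgeR adjusted p = 6.54e-05). CYC1, at 29.1, 17.6 and 17.5 CPM in CEL, and CYCS, at 704 ± 42.8 CPM in CEL, did not pass.

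Of the mitochondrial members 3 rose and 4 fell. MT-ND6 had 269, 276 and 289.8 CPM in CEL against 148, 155 and 171 CPM in LPS (0.81 ± 0.11, edgeR adjusted p = 4.54e-05). MT-ND5 had 927, 967 and 1037 CPM in CEL against 621, 643 and 650.5 CPM in LPS (0.61 ± 0.07, edgeR adjusted p = 2.42e-05). The neighbours on opposite strands were thus both higher in CEL, as in CE. MT-ND1 rose by 0.23 ± 0.07 (edgeR adjusted p = 0.0153, lost without LPS 1 (0.0601)). MT-CO2 had 3661, 3865 and 3773 CPM in CEL against 5808, 5899 and 5216 CPM in LPS (-0.58 ± 0.09, edgeR adjusted p = 0.000202), and MT-ND2 fell with a log2 change of -0.37 (edgeR adjusted p = 0.000586). MT-ATP6 fell with a log2 change of -0.29 (edgeR adjusted p = 0.0106, lost without CE 3 (0.0736) or NC 3 (0.0617)) and MT-ND3 with one of -0.56 (edgeR adjusted p = 0.0157, lost without CEL 1, LPS 1 or LPS 2 (0.0546 to 0.0711)). MT-ND4 was the abundant member with the smallest change, at 9913 ± 161 CPM in CEL and 9913 ± 681 CPM in LPS, and MT-ND4L, MT-CYB, MT-CO1, MT-CO3 and MT-ATP8 did not pass.

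For CEL against LPS, limma on log2(TPM + 1) gave 7 higher and 2 lower, upper quartile scaling 7 higher and 39 lower, and the length offset 27 higher and 16 lower. Without LPS 1 and NC 3 together 14 rose and 15 fell.

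**Figure D4:**
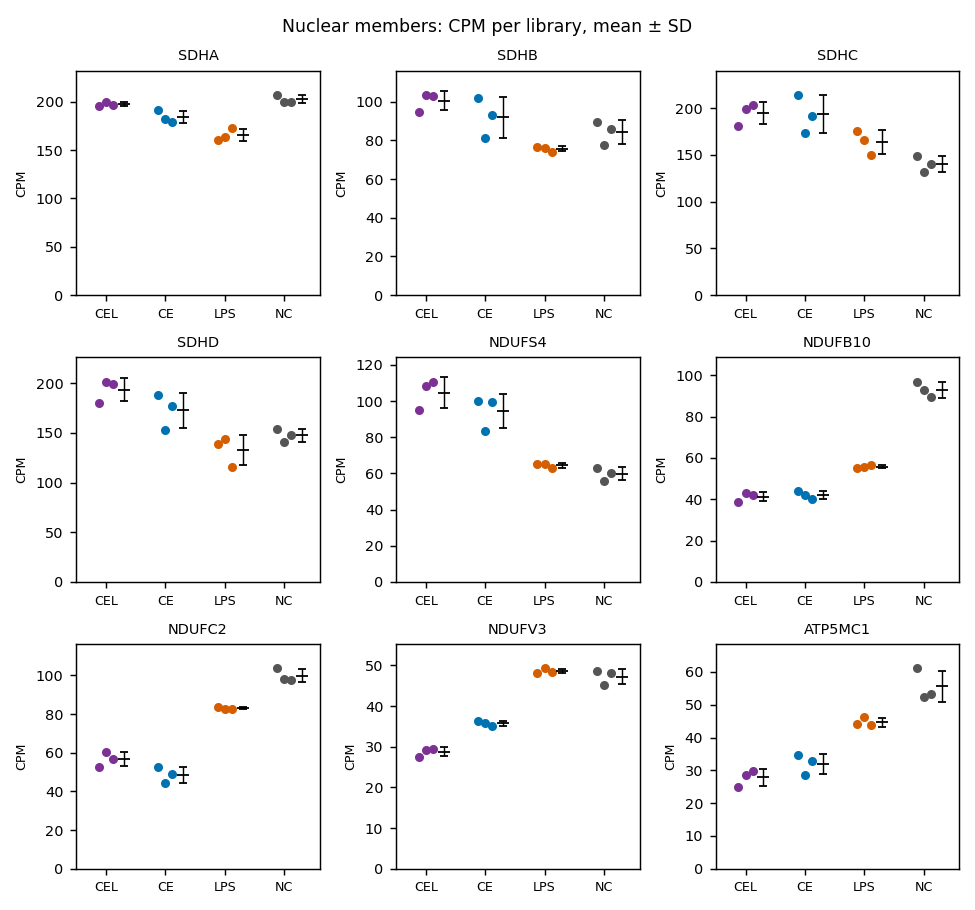
CPM of 9 nuclear members in the 12 libraries, with mean ± SD beside each group; axes start at 0 and differ between panels. SDHB, SDHD and NDUFS4 are higher in CEL than in LPS and NC with no overlap, while NDUFB10 and ATP5MC1 are highest in NC and lower in LPS, CE and CEL.

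The comparison that isolates Luspatercept found few differences. In CEL relative to CE, 3 members (3.26%) rose and 9 (9.78%) fell, where 8.78% of all genes tested rose and 14.8% fell, 23.6% in either direction (edgeR, adjusted p under 0.05). The median of the members was -0.02 on the log2 scale, beside -0.09 over all genes tested. Of the 9 falls, 6 were in mitochondrial members, and complexes II, III, IV and V had no nuclear gene called. That weight on mitochondrial members was not stable: 0 of them fell without CE 3, 2 without NC 3, 3 without CE 1 or any 1 CEL library and 8 without CE 2, and 1 fell with relative log expression factors or the length offset and 2 with scaling without MT- rows. With a replicate block none of the 92 rose and 6 fell.

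MT-CO2 had 3661, 3865 and 3773 CPM in CEL against 5905, 4712 and 5343 CPM in CE (-0.50 ± 0.09, edgeR adjusted p = 0.00236, lost without CE 3 (0.0542)). MT-CO1 had 13180.1, 13634 and 14154 CPM in CEL against 20253, 16809 and 18991 CPM in CE (-0.45 ± 0.10, edgeR adjusted p = 0.00571, lost without CE 3 (0.113)). MT-CO3 averaged 4787 ± 199 CPM in CEL and 5909 ± 747 CPM in CE (-0.30 ± 0.09, edgeR adjusted p = 0.0385, and 0.073 with the block). All 3 complex IV core transcripts were therefore lower in CEL, with no overlap of libraries. MT-ND4 fell with a log2 change of -0.40 (edgeR adjusted p = 0.0131, lost without CE 3 (0.19) or NC 3 (0.0765)) and MT-ND4L with one of -0.48 (edgeR adjusted p = 0.0261, lost without CE 1, CE 3, CEL 1, CEL 2, CEL 3 or NC 3 (0.0601 to 0.161)). MT-ATP6 had a log2 change of -0.27 and MT-ND1 of 0.23 (edgeR adjusted p = 0.0368 and 0.038, against 0.0677 and 0.073 with the block). The calls of MT-CO3, MT-ATP6 and MT-ND1 were lost without any 1 of 9, 8 and 8 libraries: CE 1, CE 3, any CEL library, LPS 1 or any NC library for MT-CO3, the same less NC 2 for MT-ATP6, and CE 1, CE 2, CEL 2, CEL 3, LPS 1, LPS 2, NC 1 or NC 3 for MT-ND1 (adjusted p up to 0.29, 0.332 and 0.111). MT-ND5 and MT-ND6 overlapped between CEL and CE, as did MT-ND3, the abundant member with the smallest change, at 718 ± 44.5 CPM in CEL and 719 ± 87.5 CPM in CE.

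In complex I, NDUFV3 had 27.5, 29.2 and 29.5 CPM in CEL against 36.3, 35.8 and 35.1 CPM in CE and had the smallest p (-0.31 ± 0.05, edgeR adjusted p = 0.00131). NDUFA7, an accessory subunit, had 7.01, 8.87 and 7.74 CPM in CEL against 11.8, 10.2 and 10.9 CPM in CE (-0.48 ± 0.12, edgeR adjusted p = 0.0124, lost without CE 3 (0.0815) or CEL 1 (0.0503)). NDUFV1 had 34.2, 29.7 and 24.9 CPM in CEL against 38.4, 55.2 and 34.4 CPM in CE (-0.53 ± 0.17, edgeR adjusted p = 0.0451, and 0.0754 with the block), a call lost without CE 2, CEL 2, CEL 3, LPS 1, LPS 2, NC 1, NC 2 or NC 3 (0.0522 to 0.154). NDUFV1 is a gene in which CE 2 stands apart. NDUFC2 rose by 0.22 ± 0.07 and NDUFA5, an accessory subunit, by 0.27 ± 0.08 (edgeR adjusted p = 0.0336 and 0.0319, against 0.0665 and 0.0645 with the block). The NDUFC2 call was lost without CE 2, CE 3, CEL 2 or CEL 3 (0.0675 to 0.132) and the NDUFA5 call without CE 1, CE 2, CEL 2 or CEL 3 (0.0501 to 0.104). The complex II genes did not pass: SDHA, the closest, had 198 ± 1.95 CPM in CEL and 185 ± 6.41 CPM in CE. CYC1 and CYCS also overlapped between CEL and CE. Without CE 2, no member rose and 19 fell, and without CE 3, 2 rose and 2 fell. Without CE 1 there were 6 higher and 6 lower, without NC 1 or LPS 1 2 and 6, without NC 3 2 and 4, without LPS 2 2 and 8, without CEL 1 3 and 5, without CEL 2 0 and 5, and without CEL 3 0 and 7. Limma on log2(TPM + 1) called none in either direction, with 0 higher and 0 lower at an unadjusted p under 0.05.

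**Figure D5:**
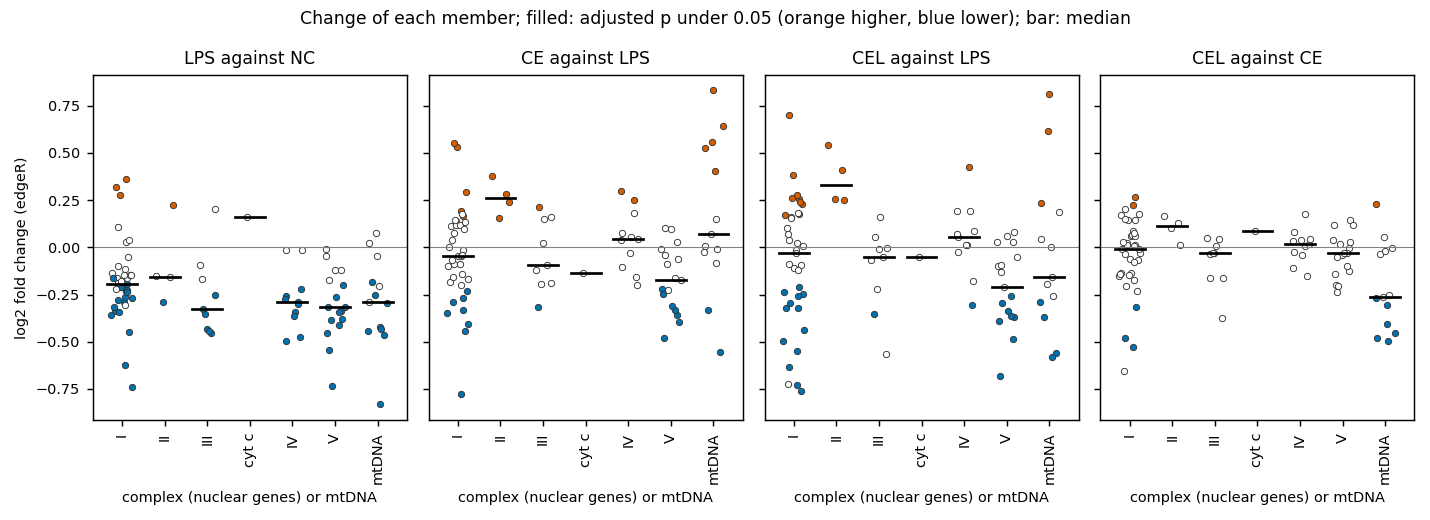
Log2 fold change of each member in 4 comparisons, by complex for nuclear genes and with the 13 mitochondrial genes (mtDNA) at the right; filled points passed an adjusted p under 0.05 (orange higher, blue lower) and bars are medians. In LPS against NC most points lie below 0, in CE and CEL against LPS all 4 complex II points are filled above 0, and in CEL against CE the filled points are mostly mitochondrial and below 0.

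Set against untreated cells, most of the chain was called lower under the combined treatment. In CEL relative to NC, 58 members fell and 10 rose, where 33% of all genes tested fell and 34% rose, 67% in either direction (edgeR, adjusted p under 0.05). The median of the members was -0.31 on the log2 scale, beside 0.0036 over all genes tested. It was 0.0071 with the length offset, beside 0.015 over all genes, and -0.08 with limma on log2(TPM + 1), beside 0.16. The falls took 24 of 37 nuclear genes in complex I, 7 of 9 in complex III, 6 of 11 in complex IV and 14 of 17 in complex V, and 7 of 13 mitochondrial members. In complex II none fell and 3 of 4 rose. The length offset gave 28 lower and 27 higher, and limma on log2(TPM + 1) 18 lower and 11 higher.

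NDUFB10 had 38.8, 42.8 and 41.9 CPM in CEL against 97.0, 92.8 and 89.4 CPM in NC, the largest change of any member (-1.18 ± 0.06, edgeR adjusted p = 7.12e-09). NDUFV1 was 29.6 ± 4.63 CPM in CEL against 60.7 ± 2.85 CPM in NC (-1.03 ± 0.17, edgeR adjusted p = 0.000221), and the log2 changes of NDUFC2 and NDUFV3 were -0.82 and -0.72. NDUFS4 was 105 ± 8.62 CPM in CEL against 59.8 ± 3.57 CPM in NC (0.81 ± 0.08, edgeR adjusted p = 4.21e-06), and NDUFA9 was higher by 0.54 ± 0.09 (edgeR adjusted p = 0.000182). Complex I thus held the widest spread in both directions. SDHC was 195 ± 11.8 CPM in CEL against 140.0 ± 8.47 CPM in NC (0.48 ± 0.08, edgeR adjusted p = 0.000357), SDHD was higher by 0.39 ± 0.09 (edgeR adjusted p = 0.00266) and SDHB by 0.25 ± 0.08 (edgeR adjusted p = 0.0174, lost without CEL 2, CEL 3, NC 2 or NC 3 (0.0527 to 0.0763)). SDHA averaged 198 ± 1.95 CPM in CEL and 203 ± 4.20 CPM in NC and did not pass. Among the largest falls of the other complexes were UQCRQ in complex III (-0.57 ± 0.09), COX7C in complex IV (-0.78 ± 0.07) and ATP5MC1 in complex V (-1.001 ± 0.09), with edgeR adjusted p of 0.000172, 1.77e-06 and 1.83e-06. For all 3 the CEL libraries lay below every NC library.

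Among mitochondrial members, MT-ND3 (-1.02 ± 0.17), MT-CO2 (-1.01 ± 0.09) and MT-CO3 (-0.99 ± 0.10) fell most (edgeR adjusted p = 0.000257, 1.62e-06 and 2.58e-06), and all 3 held under each of the 23 alternatives. MT-ATP6, MT-ATP8, MT-ND2 and MT-CYB fell, with log2 changes of -0.74, -0.69, -0.56 and -0.45. MT-ND6 rose by 0.77 ± 0.11 and MT-ND5 by 0.69 ± 0.07 (edgeR adjusted p = 5.11e-05 and 6.16e-06), both under each alternative. MT-ND1 rose by 0.26 ± 0.07 (edgeR adjusted p = 0.00757, lost without NC 3 (0.0626) and under 7 of the 23 alternatives in all). MT-CO1, MT-ND4 and MT-ND4L did not pass. NDUFC1, the abundant nuclear member with the smallest change, averaged 71.9 ± 2.97 CPM in CEL and 71.4 ± 1.31 CPM in NC.

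Shares within the mitochondrial transcripts do not depend on how libraries are scaled. Of the counts of the 13 genes, MT-CO1 took 28.6, 28.2 and 29.1% in CEL, 31.4, 31.1 and 30.7% in CE, 24.2, 23.6 and 24.5% in LPS and 23.4, 22.7 and 23.5% in NC. The CE and CEL shares were above all LPS and NC shares. MT-CO3 took 9.91, 10.3 and 9.95% in CEL, 10.2, 9.50 and 9.67% in CE, 10.6, 10.7 and 10.9% in LPS and 15.01, 14.5 and 15.6% in NC, so NC stood apart from all 9 other libraries. MT-CO2 took 7.94, 8.00 and 7.76% in CEL, 9.14, 8.73 and 8.63% in CE, 11.5, 11.4 and 11.2% in LPS and 12.1, 11.5 and 12.2% in NC. The 3 core subunits of 1 enzyme, cut from the same precursor, thus kept no fixed ratio: MT-CO1 over MT-CO2 was 3.6001, 3.53 and 3.75 in CEL, 3.43, 3.57 and 3.55 in CE, 2.11, 2.08 and 2.19 in LPS and 1.93, 1.97 and 1.92 in NC.

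MT-ND6 made up a small share, 0.583, 0.571 and 0.596% in CEL, 0.393, 0.560 and 0.467% in CE, 0.293, 0.299 and 0.368% in LPS and 0.224, 0.296 and 0.254% in NC. MT-ND5 took 2.01, 2.00 and 2.13% in CEL, 1.30, 1.83 and 1.59% in CE, 1.23, 1.24 and 1.40% in LPS and 0.874, 0.994 and 1.00% in NC. CE 1 had the lowest value of both among the treated libraries and, for MT-ND5, overlapped LPS. Relative to MT-CYB, the next protein-coding gene, on the opposite strand, MT-ND6 had a count ratio of 0.0834, 0.0812 and 0.0867 in CEL, 0.0587, 0.0852 and 0.0708 in CE, 0.0391, 0.0389 and 0.0473 in LPS and 0.0310, 0.0409 and 0.0367 in NC. The lowest CE ratio lay above every LPS and NC ratio. MT-ND3 took 1.45, 1.56 and 1.5002% in CEL, 1.23, 1.16 and 1.19% in CE, 2.37, 2.40 and 1.56% in LPS and 2.31, 2.36 and 2.23% in NC, with LPS 3 close to CEL.

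Shares within the nuclear members separated all 4 groups for complexes II and V only, and for the others some groups overlapped. Complex II, with 4 genes, took 6.73, 6.64 and 6.57% of nuclear counts of the chain in CEL, 6.18, 6.26 and 6.25% in CE, 5.10, 5.00 and 5.00% in LPS and 4.68, 4.58 and 4.63% in NC. Complex V, with 17 genes, took 29.7, 30.02 and 30.3% in CEL, 31.1, 30.6 and 30.8% in CE, 33.2, 33.3 and 33.8% in LPS and 34.2, 34.0 and 34.3% in NC. The 4 groups did not overlap in either share, and complexes II and V ran in opposite orders. These count shares take no account of transcript length. Effective lengths ran from 790 to 1731 bases in complex II and from 150 to 3261 bases in complex V. In CEL against NC, all genes under 500 bases had a median log2 change of -0.41, and those above 4000 bases 0.45. The part of length in these shares was not tested. Complex III took 12.8 to 13.1% in CEL, 13.04 to 13.5% in CE, 12.6% in each LPS library and 13.8 to 14.1% in NC. Complex I took 27.2 to 27.7% in CEL, 26.7 to 27.5% in CE, 26.3 to 26.9% in LPS and 25.5 to 25.6% in NC. Complex IV took 16.0 to 16.5% in CEL, 15.9 to 16.3% in CE, 15.5 to 15.8% in LPS and 16.4 to 16.5% in NC. CYCS took 6.74 to 6.85% in CEL, 6.21 to 6.62% in CE, 6.31 to 7.11% in LPS and 5.19 to 5.31% in NC. By group mean in CPM, the order NC, LPS, CE and CEL from high to low was held by 22 of 79 nuclear members and 5 of 13 mitochondrial ones, the most common order in both sets, and groups next to each other in it often overlapped.

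Factors around the chain were counted from lists chosen with earlier results of these data known, at an adjusted p under 0.05. Over all genes tested 22.4% rose and 23.5% fell in LPS against NC, 28.8% and 20.7% in CE against LPS, and 28.7% and 27.2% in CEL against LPS, and several list counts lay near these shares, such as the falls among assembly factors and tricarboxylic acid cycle genes in LPS against NC. Of 52 assembly factors, 4 rose and 15 fell in LPS against NC, and 8 rose and 23 fell in CE against LPS and again in CEL against LPS. ACAD9, an assembly factor of complex I, averaged 18.5 ± 0.787 CPM in CEL, 24.8 ± 1.48 CPM in CE, 42.1 ± 1.88 CPM in LPS and 66.0 ± 3.25 CPM in NC, and fell with a log2 change of -1.19 ± 0.07 in CEL against LPS (edgeR adjusted p = 5.57e-08). COA8, an assembly factor of complex IV, rose by 1.15 ± 0.07 (edgeR adjusted p = 7.01e-08). Of 18 genes of mitochondrial RNA processing and decay, 1 rose and 5 fell in LPS against NC, 1 rose and 11 fell in CE against LPS, and 0 rose and 11 fell in CEL against LPS. PNPT1, the polynucleotide phosphorylase that degrades mitochondrial RNA and is known as an interferon-stimulated gene, was that rise in LPS. It averaged 134 ± 6.68 CPM in CEL, 183 ± 7.08 CPM in CE, 346 ± 16.3 CPM in LPS and 102 ± 2.93 CPM in NC (1.76 ± 0.05 in LPS against NC and -1.36 ± 0.05 in CEL against LPS, edgeR adjusted p = 1.66e-10 and 2.51e-09). Both PNPT1 calls held under each of the 23 alternatives.

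Of 17 genes of mitochondrial DNA maintenance and transcription, 2 rose and 3 fell in LPS against NC, 3 rose and 8 fell in CE against LPS, and 4 rose and 9 fell in CEL against LPS. TFB1M, a methyltransferase of the small mitochondrial ribosomal RNA, averaged 5.76 ± 0.533 CPM in CEL, 7.31 ± 0.767 CPM in CE, 16.2 ± 1.28 CPM in LPS and 22.3 ± 0.593 CPM in NC (-1.49 ± 0.10 in CEL against LPS, edgeR adjusted p = 3.19e-07). Of 17 genes of the tricarboxylic acid cycle, 2 rose and 4 fell in LPS against NC, 6 rose and 1 fell in CE against LPS, and 6 rose and 2 fell in CEL against LPS. DLST, a subunit of the 2-oxoglutarate dehydrogenase complex, rose by 0.39 ± 0.04 in CEL against LPS (edgeR adjusted p = 6.69e-06). Of 10 genes of coenzyme Q synthesis, 0 rose and 1 fell in LPS against NC, 2 rose and 3 fell in CE against LPS, and 2 rose and 4 fell in CEL against LPS. PDSS1 and PDSS2, which together make the side chain of coenzyme Q, moved apart, at -1.39 ± 0.11 and 1.09 ± 0.08 in CEL against LPS (edgeR adjusted p = 9.86e-07 and 3.96e-07).

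Of 7 alternative subunits and regulators of the chain, 2 rose and 4 fell in LPS against NC, and 3 rose and 2 fell in CE and in CEL against LPS. UCP2, an uncoupling protein of the inner membrane, averaged 11.0 ± 0.442 CPM in CEL, 19.1 ± 0.361 CPM in CE, 42.1 ± 2.24 CPM in LPS and 68.9 ± 0.673 CPM in NC, and each step was called (-0.71 for LPS against NC, -1.14 for CE against LPS and -0.80 for CEL against CE, edgeR adjusted p = 1.06e-06, 3.57e-08 and 4.95e-06). COX7A2L, which promotes supercomplexes of III and IV, rose by 0.67 ± 0.08 in CE against LPS and by 0.77 ± 0.08 in CEL against LPS (edgeR adjusted p = 1.98e-05 and 4.65e-06). Of 13 regulators of mitochondrial biogenesis, 3 rose and 1 fell in LPS against NC, 4 rose and 2 fell in CE against LPS, and 4 rose and 4 fell in CEL against LPS. HIF1A, the hypoxia-inducible factor known to restrain respiration, rose by 1.19 ± 0.07 in LPS against NC and by 0.43 ± 0.07 in CEL against LPS (edgeR adjusted p = 9.13e-08 and 0.000229). Of 22 rows for mitochondrial carriers, porins and import, 1 rose and 10 fell in LPS against NC, 3 rose and 9 fell in CE against LPS, and 4 rose and 8 fell in CEL against LPS. PHB2, a prohibitin of the inner membrane, averaged 71.9 ± 2.72 CPM in CEL, 95.1 ± 4.80 CPM in CE, 132 ± 1.72 CPM in LPS and 179.9 ± 5.16 CPM in NC (-0.87 ± 0.05 in CEL against LPS, edgeR adjusted p = 3.96e-08).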

How the data were processed

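RNA from 12 THP-1 samples was sequenced after capture of mRNA with oligo-dT beads, per the labels' protocols. The authors deposited 3 tables of all genes, holding estimated counts, TPM and FPKM. The deposited estimated counts were made against hg38, per the submitters' processing notes; the sources used here do not give the aligner, the counter, the strand setting or the annotation. The deposited TPM values were used for levels between genes, and in the limma alternatives and the length offset. The deposited FPKM values, with the counts, gave the effective transcript lengths in bases, and were also used for column sums. Of the nonzero deposited counts 29.3% were not whole within 0.005, so counts were rounded. Of 78932 rows, 42745 carried a symbol.

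All 12 libraries entered 1 edgeR fit (version 4.0.16, R 4.3.3) with a coefficient for each group: filterByExpr, TMM factors, quasi-likelihood test and Benjamini-Hochberg adjustment over 14065 genes at 0.05. Library totals were 17737240 to 23183474 and the common biological coefficient of variation was 20.1%. The script was tested on simulated data. Standard errors are the log2 change over the root of F. Members and lists were chosen with earlier results of these data known. Named genes were, in each comparison, the nuclear members of each complex with the largest called change, those with the smallest p, the abundant member with the smallest change, every mitochondrial and complex II gene, CYCS and CYC1; from each surrounding list, genes with the smallest p. Limits of precision are counting error and spread between 3 libraries. Alternatives were 23: other scalings, no filter, DESeq2 1.42.0, limma 3.58.1 on log2(TPM + 1) and log2(TPM + 0.1), a replicate block, a length offset, LPS 1 and NC 3 left out together, and each library left out.

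The labels give each library a batch number equal to its replicate number, which is where the pairing comes from. Over 7460 genes, same-numbered libraries of different groups had deviations from group means correlated at -0.857 to 0.728 (median -0.186), above 0.1 in 6 of 18 pairs, and 1 library correlated best with its own number. CE columns were matched by elimination. Values of 1 member are not reported here; it is included in the counts.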

Additional observations from a re-analysis of the deposited data

How the results depend on the processing

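Of 135 combinations of a named member and a comparison, 89 were called, 29 of these under all 23 alternatives, and 60 were lost under at least 1. Limma on log2(TPM + 1) and log2(TPM + 0.1) ended 56 and 54 of the 89. Leaving out NC 3 and LPS 1 together ended 26, the length offset 24 and no filter on low counts 24. The cause was not tested, nor was the part of the low TPM of the members in NC 3 and LPS 1 in the limma losses. With upper quartile scaling the median log2 change of all genes was -0.12 in LPS against NC, beside -0.01 in the main fit. It was -0.10 in CE against LPS, beside 0.08, and -0.17 in CEL against LPS, beside -0.03. In CEL against CE it was -0.04, beside -0.09, and in CEL against NC -0.24, beside 0.0036.

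Counts of members that moved by over 1.5 times were as follows. Limma on log2(TPM + 1) gave 1 higher and 2 lower in LPS against NC, 4 and 2 in CE against LPS, 7 and 2 in CEL against LPS, 0 and 0 in CEL against CE, and 18 lower in CEL against NC. With log2(TPM + 0.1) they were 1 and 3, 5 and 2, 7 and 2, 0 and 0, and 17 lower. The length offset gave 13 lower in LPS against NC, 27 higher and 16 lower in CEL against LPS, 7 and 3 in CEL against CE, and 27 and 28 in CEL against NC. Upper quartile scaling gave 2 higher in LPS against NC, 6 higher and 38 lower in CE against LPS, 7 higher in CEL against LPS and 5 higher in CEL against CE. Library size alone gave 7 higher and 40 lower in CE against LPS, 8 higher in CEL against LPS and 8 higher in CEL against CE. Relative log expression factors gave 8 higher in CE against LPS, and 0 higher and 4 lower in CEL against CE. No filter on low counts gave 17 lower in LPS against NC, 7 higher in CE against LPS, 6 higher in CEL against LPS and 0 higher in CEL against CE. DESeq2 gave 9 higher in CE against LPS, and scaling without MT- rows 4 lower in CEL against CE. The replicate block, which pairs libraries by number, gave 3 higher and 44 lower in LPS against NC, 16 and 17 in CE against LPS, 16 and 26 in CEL against LPS, 0 and 6 in CEL against CE, and 10 and 56 in CEL against NC; beyond the calls given beside their results it changed no other call of a named member. Without NC 3 and LPS 1 together there were 1 higher and 29 lower in LPS against NC, 9 higher in CE against LPS, 15 lower in CEL against LPS, and 1 higher and 3 lower in CEL against CE.

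Leaving out each library in turn gave 2 to 5 higher and 35 to 61 lower in LPS against NC, 8 to 27 and 14 to 29 in CE against LPS, 13 to 23 and 21 to 33 in CEL against LPS, 0 to 6 and 2 to 19 in CEL against CE, and 8 to 13 and 51 to 59 in CEL against NC. Counts of surrounding lists moved by over 1.5 times as follows. In LPS against NC, the tricarboxylic acid cycle had 2 lower without CE 3, LPS 1 or NC 1 and 1 without NC 3, and 0 higher without CE 3 or NC 3 and 1 without LPS 2. Coenzyme Q synthesis had 4 lower without CE 2 and 2 without CE 1 or CE 3. Carriers, porins and import had 6 lower without LPS 3, NC 1 or NC 3. Mitochondrial DNA maintenance had 0 higher without CE 3, LPS 2 or NC 3 and 1 without LPS 1, LPS 3 or NC 2. Biogenesis regulators had 0 to 3 lower. In CE against LPS, biogenesis regulators had 5 lower without CE 2, 1 without CE 3 or NC 3 and 0 without LPS 1 or LPS 2, DNA maintenance 5 higher without CE 2, and carriers 5 higher without CE 1, CE 3 or LPS 3. Coenzyme Q synthesis had 1 higher without CE 1, CE 3, LPS 2, LPS 3 or NC 3. The lone fall of the tricarboxylic acid cycle and the lone rise of RNA processing were lost without CE 3, LPS 1, LPS 2 or NC 3. In CEL against LPS, coenzyme Q synthesis had 7 lower without CE 2, and 1 higher without CEL 2, CEL 3, LPS 2, LPS 3 or any 1 NC library. The tricarboxylic acid cycle had 1 lower without CE 3 or NC 3, and RNA processing 1 higher without CE 3, LPS 3 or NC 3.

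Among called members the sign of SDHA turned in CE against LPS, to -0.0186 with upper quartile scaling and -0.0001 with library size alone. PDHA1, a called gene of pyruvate oxidation, turned in CEL against NC to 0.0211 with limma on log2(TPM + 1) and 0.0214 with log2(TPM + 0.1). Of the 46 named combinations that were not called, 28 changed sign under at least 1 alternative, among them MT-ND1 and MT-ND6 in LPS against NC, MT-ATP6 in CE against LPS and MT-ND2 in CEL against CE, and no direction is given for them. The values of the genes named for the smallest change were as follows. ATP5F1E in LPS against NC turned to 0.0522 with no filter on low counts and to 0.1401 and 0.1418 with limma. NDUFC1 in CE against LPS turned to -0.0419 with DESeq2, -0.152 with library size alone, -0.0243 with no filter, -0.0413 with relative log expression, -0.0126 without MT- rows, -0.1699 with upper quartile scaling and -0.0213 without NC 3 and LPS 1. NDUFC1 in CEL against NC turned to -0.1079 with library size alone, -0.0263 with no filter and -0.2358 with upper quartile scaling. MT-ND4 in CEL against LPS turned to -0.0058 with DESeq2 and with relative log expression, -0.1104 with library size alone, -0.097 with no filter and -0.1336 with upper quartile scaling. MT-ND3 in CEL against CE turned to 0.0324 with DESeq2 and with relative log expression, 0.0877 with the length offset, 0.0408 with library size alone, 0.061 and 0.0611 with limma, 0.0497 without MT- rows, 0.0335 with upper quartile scaling and 0.0499 without NC 3 and LPS 1. With each library left out in turn the values ran from -0.0305 to 0.0146 for ATP5F1E in LPS against NC, -0.0566 to 0.042 for NDUFC1 in CE against LPS, -0.0195 to 0.04 for NDUFC1 in CEL against NC, -0.0524 to 0.0453 for MT-ND4 in CEL against LPS and -0.0992 to 0.0776 for MT-ND3 in CEL against CE.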
